A study of Mus musculus with 8 samples.

Results

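Smad1, Smad2, Smad3, Smad4 and Smad5 were read on every Affymetrix probe set that the platform annotation gives to 1 of these 5 genes, in mouse CD4+ T cells cultured with or without TGF-b. The array named 18193 genes in all, and 14 of its 45101 probe sets belonged to these 5: 3 each for Smad1, Smad3, Smad4 and Smad5, and 2 for Smad2. The probe sets were taken by gene name, and each was read separately on all 8 arrays. The 5 genes were chosen with earlier results of these data known. A probe set is a group of short probes against 1 stretch of a transcript, so probe sets of a gene can differ in brightness and in the transcript forms they meet. The level of one was therefore not set against the level of another.

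The cells were naive CD4+ T cells, sorted from spleen to a purity above 98% by the absence of CD25, little CD44 and much CD62L, from mice labelled C57BL/6J. Smad2KO cells lacked Smad2 through a conditional deletion specific to T cells, Smad3KO cells carried a Smad3 knockout, Smad2KO_Smad3het cells joined the conditional Smad2 deletion with 1 disrupted Smad3 allele, and WT cells were wild type. The last mutant stood in for cells lacking both genes, which yielded too few naive cells. All cultures ran for 24 h with 1 ug/ml each of anti-CD3e and anti-CD28, 10 ug/ml each of anti-IFN-g and anti-IL-4, and 10 ng/ml of IL-2, and TGF-b was added at 2 ng/ml or left out. The sources used here do not give the Cre driver, the deleted exons or the ages of the mice. Each of the 4 genotypes had 1 array with and 1 without TGF-b, and nothing in the labels says that cultures came from separate animals. Differences between 2 single arrays are therefore values with no replicate check.

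Smads carry the signal of TGF-b family receptors from the membrane to DNA. Smad2 and Smad3 are phosphorylated by the TGF-b and activin receptors, Smad1 and Smad5 mainly by the receptors for bone morphogenetic proteins (BMPs), and Smad4 joins either pair as the shared partner that accompanies them into the nucleus. In CD4+ T cells the TGF-b arm is known for restraining effector programmes and for its part in the induction of regulatory T cells.

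The data collected were 1 intensity per probe set and array, and they were scaled here so that all arrays had the same 2% trimmed mean. Scaled signals below the median of the arrays in a fit (27.7 on the 6 WT, Smad2KO and Smad3KO arrays) were raised to that floor before log2 was taken, and a probe set was tested where its highest signal reached 55.4, which is 2 times the floor. The pair of Smad2KO_Smad3het arrays differed from the other 6 in distribution: its deposited trimmed means were 97.4 and 109, against 202 to 298, and after scaling 62.2% and 62.8% of probe sets reached 55.4, against 39.3% to 40.7%. Of the CD4 T cell markers, 7 of 7 were bright on every array, with a summed signal of 15270 to 16130 on the Smad2KO_Smad3het arrays and 21330 to 22670 on the other 6. The Smad2KO_Smad3het arrays had 6 of 9 myeloid markers bright (summed signal 2517 to 2670), 2 to 4 of 6 B cell markers (552.7 to 1004), 2 of 3 NK markers (310.2 to 518.7) and 1 to 2 of 2 CD8 T markers (1049 to 1347). On the other 6 arrays these were 0 to 1 of 9 (141.2 to 235.8), 0 of 6 (67.03 to 96.97), 0 of 3 (8.016 to 78.28) and 0 to 2 of 2 (58.1 to 136.9). The main tests were therefore fitted on the 6 arrays, where 13 of the 14 Smad probe sets passed the brightness filter. The exception was the Smad5 probe set 1421047_at.

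RefSeq promoters (assembly GRCm38.p6, 250 bases before to 50 after the start) were listed for 3 of the 5 genes. That of Smad3, whose signals moved most with TGF-b, is shown with those of Smad1 and Smad5, which belong to the BMP arm. Capitals mark the motifs searched on either strand: CAGAC, the core of the Smad-binding element, and the GC-rich words GGCGC and GGCCG, which BMP-arm Smads can also bind. The full palindrome GTCTAGAC was searched too.
Smad3, chr9:63757945-63758244, minus strand: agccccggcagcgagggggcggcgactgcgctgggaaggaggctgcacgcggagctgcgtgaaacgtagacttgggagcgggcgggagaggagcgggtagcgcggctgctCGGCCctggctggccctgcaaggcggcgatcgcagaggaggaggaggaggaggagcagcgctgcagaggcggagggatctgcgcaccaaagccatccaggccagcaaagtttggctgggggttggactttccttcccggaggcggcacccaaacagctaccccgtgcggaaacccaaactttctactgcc
Smad1, chr8:79399379-79399678, minus strand: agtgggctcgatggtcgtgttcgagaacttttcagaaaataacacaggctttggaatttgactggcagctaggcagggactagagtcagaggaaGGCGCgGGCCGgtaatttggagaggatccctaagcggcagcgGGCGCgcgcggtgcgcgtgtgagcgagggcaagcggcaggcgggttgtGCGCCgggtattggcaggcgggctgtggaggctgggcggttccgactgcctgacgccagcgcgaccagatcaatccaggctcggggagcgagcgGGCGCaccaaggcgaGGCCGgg
Smad5, chr13:56702760-56703059, plus strand, first of 3 listed starts: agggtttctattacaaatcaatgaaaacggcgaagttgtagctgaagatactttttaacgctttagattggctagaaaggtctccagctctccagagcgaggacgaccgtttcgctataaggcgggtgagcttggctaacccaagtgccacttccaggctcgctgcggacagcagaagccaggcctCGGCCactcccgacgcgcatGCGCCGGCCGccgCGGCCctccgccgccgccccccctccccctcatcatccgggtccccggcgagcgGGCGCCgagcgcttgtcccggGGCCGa
None of these 3 windows held CAGAC or GTCTAGAC, which were present in 49.6% and 0.213% of 32851 listed promoters. GGCGC was found 0 times in the Smad3 window, 4 times in that of Smad1 and 3 times in that of Smad5, and 36.9% of listed promoters held it. GGCCG was found 1 time for Smad3, 2 times for Smad1 and 5 times for Smad5, against 35.2% of listed promoters with at least 1. Matches of GGCGC and GGCCG can overlap in the same bases. Of the other listed Smad5 starts, the third held 1 CAGAC. All 3 windows were rich in G and C, at 67.7% for Smad3, 65% for Smad1 and 63% for Smad5, against a median of 52.7% over all listed promoters. A match is a stretch of letters and not a shown binding site.

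**Figure D1:**
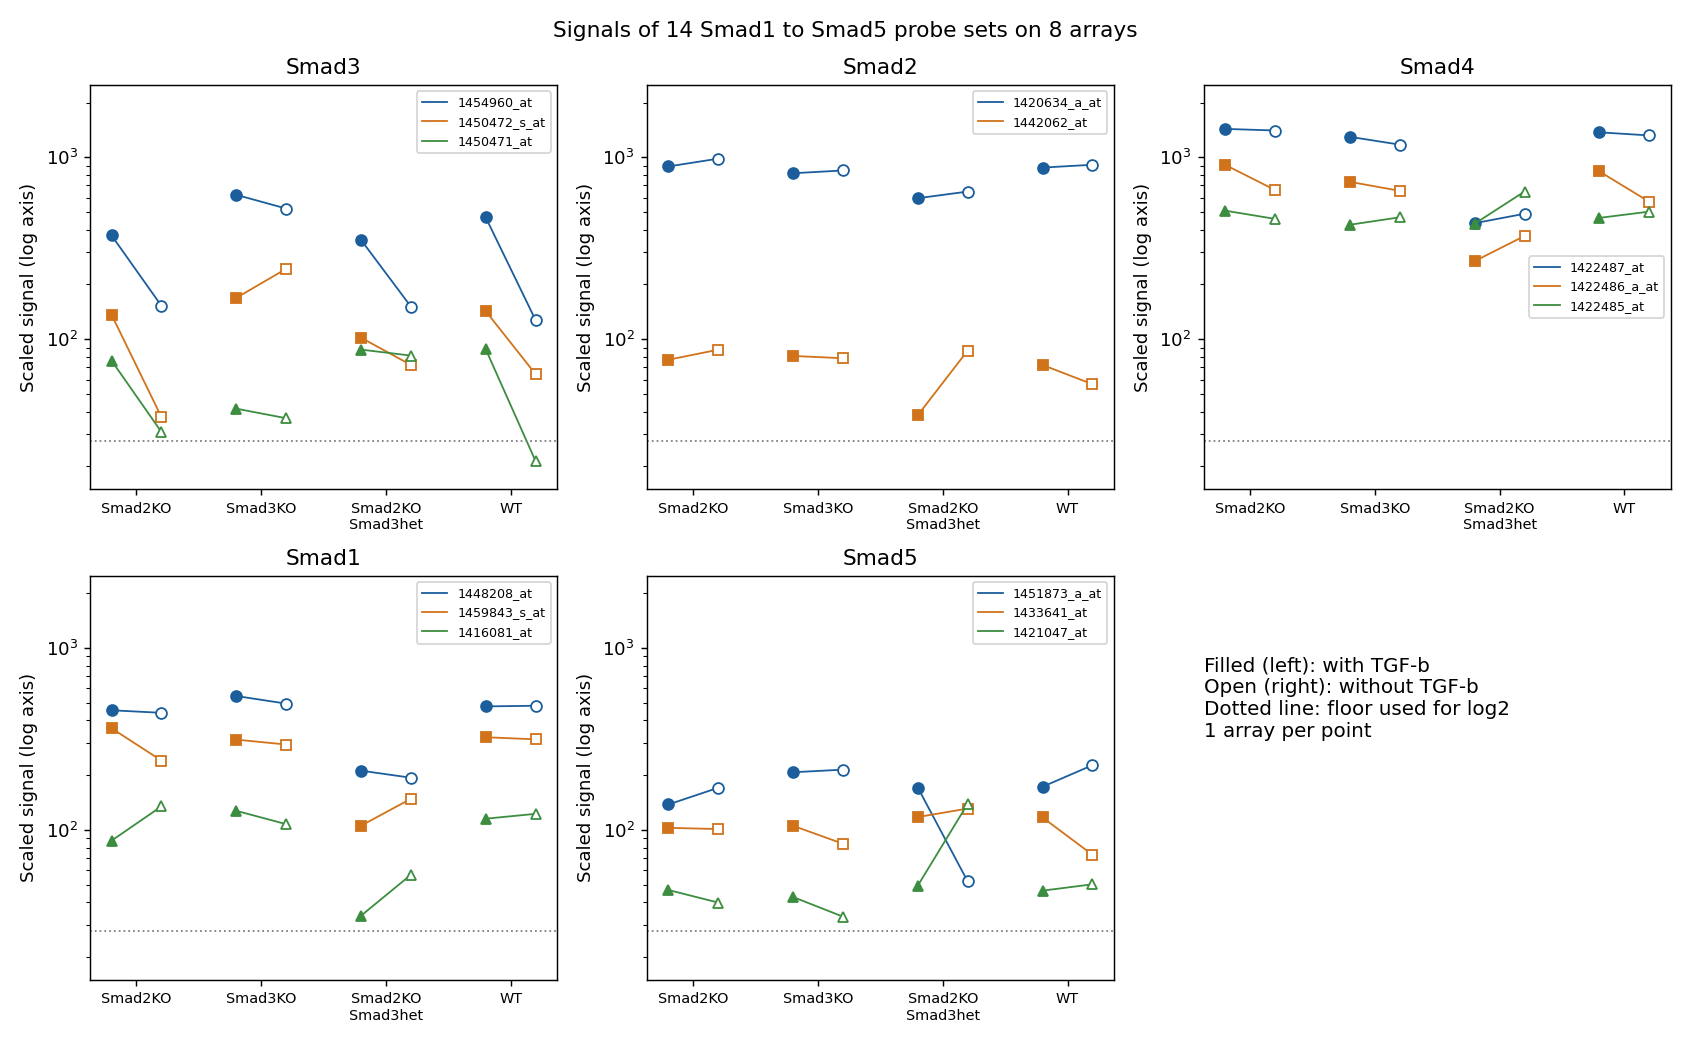
Scaled signal (log axis) of the 14 probe sets, 1 panel per gene, with 1 array per point; filled points at the left of each pair are cultures with TGF-b and open points at the right cultures without. The Smad3 lines slope down to the open points in Smad2KO and WT cells, while in Smad3KO cells the open points of 1454960_at and 1450472_s_at are at 523 and 244, above the open points of the other genotypes.

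Smad3 transmits the TGF-b signal and binds DNA directly. Its signals were higher in cultures with TGF-b than without in Smad2KO and WT cells on all 3 of its probe sets, and its probe set 1454960_at was so by more than 2-fold in both genotypes. In Smad3KO cells none of the 3 reached 2-fold. Without TGF-b, 2 of the 3 already read 3.8-fold and 4.11-fold higher in Smad3KO than in WT cells. Each of these is a ratio of 2 single arrays.

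The probe set 1454960_at read 372 with and 153 without TGF-b in Smad2KO cells. It read 622 with and 523 without TGF-b in Smad3KO cells. The readings were 352 with and 151 without TGF-b in Smad2KO_Smad3het cells, and 467 with and 127 without TGF-b in WT cells. The 3 cultures without TGF-b that were not Smad3KO lay within 127 to 153, and both Smad3KO cultures lay above every other culture. The ratio with over without TGF-b was 2.44-fold in Smad2KO, 1.19-fold in Smad3KO, 2.33-fold in Smad2KO_Smad3het and 3.67-fold in WT cells.

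The probe set 1450472_s_at read 136.5 with and 37.3 without TGF-b in Smad2KO cells, a ratio of 3.66-fold. In Smad3KO cells it read 169 with and 244 without TGF-b, a ratio of 0.692. It read 102 with and 72.2 without TGF-b in Smad2KO_Smad3het cells (1.41-fold), and 143 with and 64.2 without in WT cells (2.22-fold). The Smad3KO culture without TGF-b was the highest of the 8, and the order of the Smad3KO pair was opposite to that of the other 3 pairs. The probe set 1450471_at, near the floor in several cultures, read 76.3 with and 30.9 without TGF-b in Smad2KO cells (2.47-fold). It read 41.5 with and 36.8 without TGF-b in Smad3KO cells (1.13-fold), and 87.6 with and 81.2 without in Smad2KO_Smad3het cells. In WT cells it read 88.0 with TGF-b against 21.3 without, which lies under the floor, so the ratio was at least 3.18-fold. On this probe set the Smad3KO culture with TGF-b was the lowest of the 4 treated cultures, unlike on the other 2 Smad3 probe sets.

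Probe sets that reached 55.4 on both arrays of a pair were counted at 2-fold or more, a rule chosen after seeing the data, since with a signal near the floor on 1 array the fold depends on that floor. In Smad2KO cells 1 of 11 such Smad probe sets was higher with TGF-b, Smad3 1454960_at, where 1.89% of all such probe sets were. In Smad3KO cells it was 0 of 12, where 0.979% of all were. In WT cells it was 2 of 12, Smad3 1454960_at and 1450472_s_at, where 2.51% were. None was lower by as much in these 3 genotypes, a count with no share of all probe sets beside it and so not read further. The robust SD of the log2 ratio over all probe sets bright on both arrays was 0.281 in Smad2KO, 0.216 in Smad3KO and 0.342 in WT cells, beside log2 ratios of 1454960_at of 1.29 in Smad2KO, 0.25 in Smad3KO and 1.88 in WT cells.

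The mean response over the 3 genotypes was tested with limma, with genotype as a block. It was 1.14 on the log2 scale for 1454960_at (SE 0.328, adjusted p = 0.125, 95% interval 0.27 to 2.01), 0.83 for 1450472_s_at (SE 0.487, adjusted p = 0.38) and 1.05 for 1450471_at (SE 0.327, adjusted p = 0.0726). None of these passed. Since the test measures a response against its spread between genotypes, the low ratios of the Smad3KO pair enter that spread. Without the Smad3KO pair, limma gave 1.58 for 1454960_at (adjusted p = 1.09e-06), 1.51 for 1450472_s_at (adjusted p = 0.000416) and 1.47 for 1450471_at (adjusted p = 0.011), with 2 genotypes in the fit. In that fit 13.9% of all probe sets were called. Leaving out the pair of lowest ratios raises the mean by itself, so these values are no separate support. Without the WT pair 1454960_at gave 0.77 (limma adjusted p = 0.182), and without the Smad2KO pair 1.06 (limma adjusted p = 0.524).

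The difference itself was tested as the Smad3KO response minus the mean of the Smad2KO and WT responses, on 3 responses with 1 residual degree of freedom. The spread comes from the Smad2KO and WT responses, moderated by limma towards that of probe sets of like signal. That spread is assumed to hold for Smad3KO too. The difference rests on a Smad3KO response of 1 pair of arrays with no replicate. It was -1.33 for 1454960_at (SE 0.271, limma adjusted p = 0.0984), -2.04 for 1450472_s_at (SE 0.405, adjusted p = 0.0683) and -1.31 for 1450471_at (adjusted p = 0.824). Of 13 Smad probe sets 0 passed after adjustment, against 0.134% of all probe sets, and 2, the first and second named, had an unadjusted p below 0.05, against 6.15% of all. Whether these 2 passed depended on the processing. Both did in 3 of 8 alternative settings: quantile normalization, arrays centred on their median and a floor at the 25th percentile. In the remaining settings neither did. Over the 8 the difference ranged from -1.39 to -0.85 for 1454960_at and from -2.1 to -1.56 for 1450472_s_at. Over the other 10 Smad probe sets the same difference ranged from -0.34 to 0.6. The Smad2KO response minus the mean of the Smad3KO and WT responses gave 0 of 13 calls, where 0.00497% of all probe sets were called, and 0 at an unadjusted p below 0.05, where 2.5% of all were. Its largest value was 1.56 for 1450472_s_at (SE 0.673, limma adjusted p = 1).

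**Figure D2:**
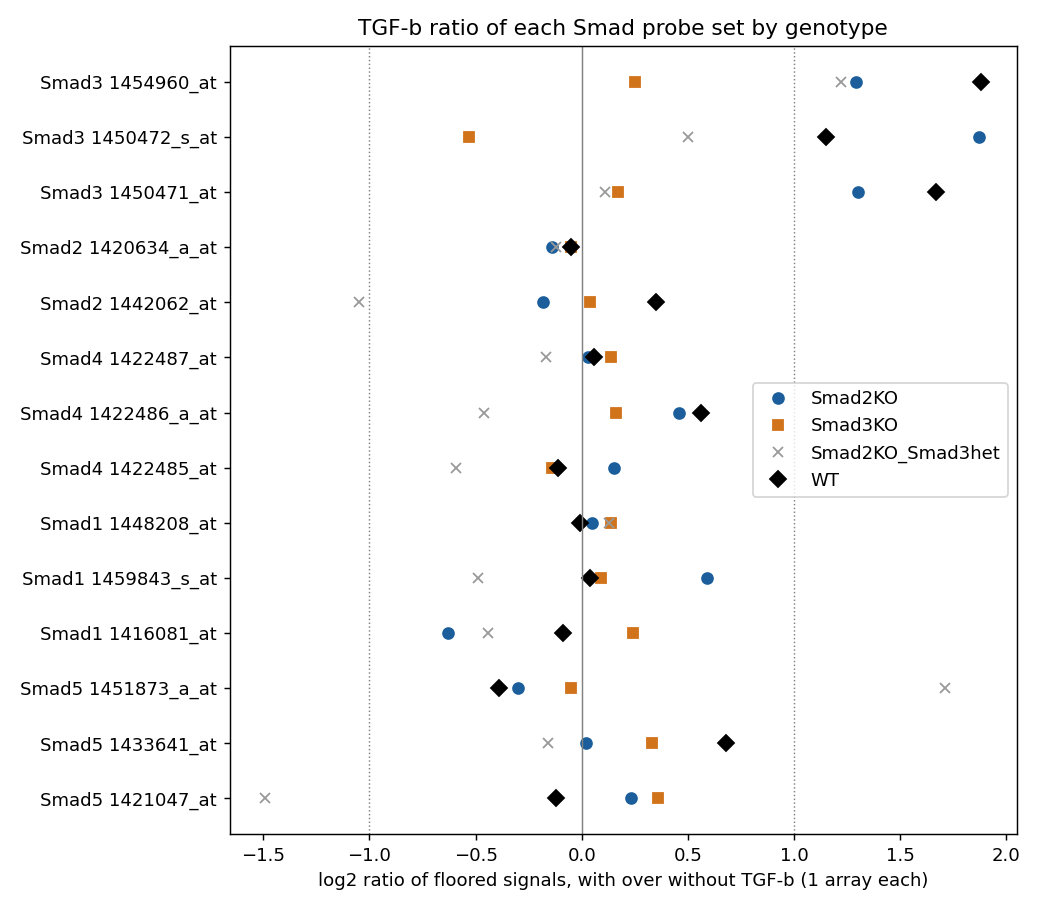
Log2 ratio of signal with over without TGF-b for each Smad probe set, 1 point per genotype, each from 1 array of each kind with signals raised to the floor of the fit used (41.8 for Smad2KO_Smad3het, 27.7 for the others). Dotted lines mark 2-fold; Smad2KO and WT points lie beyond the right line at all 3 Smad3 probe sets (1.15 to 1.88), while Smad3KO points lie between -0.53 and 0.25 there.

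The level of Smad3 was also compared between Smad3KO and WT cells. The sources used here do not say where the probes lie relative to the disrupted part of the gene, so a signal there is no check of the genotype. Without TGF-b, Smad3KO over WT was 4.11-fold for 1454960_at (523 against 127) and 3.8-fold for 1450472_s_at (244 against 64.2), and 36.8 against 21.3 for 1450471_at. With TGF-b it was 1.33-fold for 1454960_at (622 against 467), 1.18-fold for 1450472_s_at (169 against 143) and 0.471 for 1450471_at (41.5 against 88.0). On the first 2 probe sets the excess was thus mostly in the cultures without TGF-b. Without TGF-b, these 2 of 12 Smad probe sets bright on both arrays were 2-fold or more higher in Smad3KO than in WT cells, where 0.21% of all such probe sets were. With TGF-b it was 0 of 12 in either direction, a count with no share of all probe sets beside it and so not read as a contrast. Fitted over both treatments, Smad3KO minus WT was 1.23 on the log2 scale for 1454960_at (SE 0.401, 95% interval 0.16 to 2.29, limma adjusted p = 0.426), 1.08 for 1450472_s_at (adjusted p = 0.628) and -0.34 for 1450471_at (adjusted p = 0.831). With unscaled intensities 1454960_at passed, at 1.28 (adjusted p = 0.0157). In bulk samples, fewer cells of a type and less RNA per cell cannot be told apart, here or below.

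The 3 Smad3 probe sets ordered the 6 arrays with partial likeness. Over the log2 signals of 6 arrays, Pearson's r was 0.908 between 1454960_at and 1450472_s_at, 0.632 between 1454960_at and 1450471_at and 0.483 between 1450472_s_at and 1450471_at, which share the same libraries. For pairs of probe sets of the other 4 genes r ran from -0.738 to 0.498. Among 3239 probe sets with a log2 range of at least 1, the 5 genes most like 1454960_at over these arrays were Fads1, a fatty acid desaturase (r = 0.987), Baiap2 (r = 0.97), Irgm2, an interferon-inducible GTPase (r = 0.965), Map3k12, a protein kinase (r = 0.96), and Cd247, the zeta chain of the T cell receptor complex (r = 0.957, on its probe set 1420716_at). Irgm2, for example, read 174 with and 95.4 without TGF-b in Smad2KO cells, 193.5 with and 196 without in Smad3KO cells, and 227 with and 79.3 without in WT cells. Cd247 on 1420716_at was dim, and its untreated readings in WT (7.22) and Smad2KO cells (26.9) lay under the floor. Its brightest probe set, 1426396_at, read 939 with and 1150 without TGF-b in Smad2KO cells. That probe set read 1200 with and 1180 without in Smad3KO cells, and 1070 with and 1100 without in WT cells. With so many candidates and 6 arrays, likeness of this size is a description only.

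Smad2, the other transducer of the TGF-b arm, differed by less than 10% between treatments on 1420634_a_at. This probe set read 890.5 with and 983 without TGF-b in Smad2KO cells and 817 with and 846 without in Smad3KO cells. It read 596 with and 648 without TGF-b in Smad2KO_Smad3het cells, and 878 with and 909.8 without in WT cells. Each culture with TGF-b was a little lower than its partner, at 0.906 of it in Smad2KO, 0.966 in Smad3KO, 0.919 in Smad2KO_Smad3het and 0.965 in WT cells. The mean response on 6 arrays was -0.08 (95% interval -0.26 to 0.1, limma adjusted p = 0.577), so a mean response below 0.835-fold or above 1.07-fold lay outside the interval. The probe set 1442062_at read 77.1 with and 87.5 without TGF-b in Smad2KO cells and 80.9 with and 78.6 without in Smad3KO cells. It read 38.2 with and 86.7 without TGF-b in Smad2KO_Smad3het cells, and 72.2 with and 56.6 without in WT cells.

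In Smad2KO cells neither Smad2 probe set was below WT. Smad2KO over WT on 1420634_a_at was 1.01-fold with TGF-b and 1.08-fold without, and the fitted difference was 0.07 (SE 0.0995, 95% interval in fold 0.899 to 1.22, limma adjusted p = 0.897). On 1442062_at it was 0.36 (95% interval -0.19 to 0.92, limma adjusted p = 0.739). The sources used here give neither the deleted exons nor where these probes lie relative to them, so these signals are no check of the genotype.

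Compensation was read as the level of the TGF-b-arm Smad that was not deleted. In Smad3KO cells, Smad2 on 1420634_a_at differed from WT by -0.10 (95% interval in fold 0.799 to 1.08, limma adjusted p = 0.78), and on 1442062_at by 0.32 (0.85 to 1.83 in fold, adjusted p = 0.721). In Smad2KO cells, Smad3 differed from WT by -0.03 on 1454960_at (0.468 to 2.04 in fold, adjusted p = 0.991), by -0.42 on 1450472_s_at (adjusted p = 0.895) and by -0.02 on 1450471_at (adjusted p = 0.994). The first of these was 0.12 with centred arrays and 0.17 without scaling, and Smad2 in Smad3KO cells was 0.07 with centred arrays, so no direction is given for either. For Smad2 on 1420634_a_at the interval ended at 1.08-fold, but this is the interval of the main scaling, from 2 arrays against 2. On 1442062_at it reached 1.83-fold, and for Smad3 on 1454960_at it reached 2.04-fold. Whether either Smad rises when the other is deleted is thus left undecided.

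**Figure D3:**
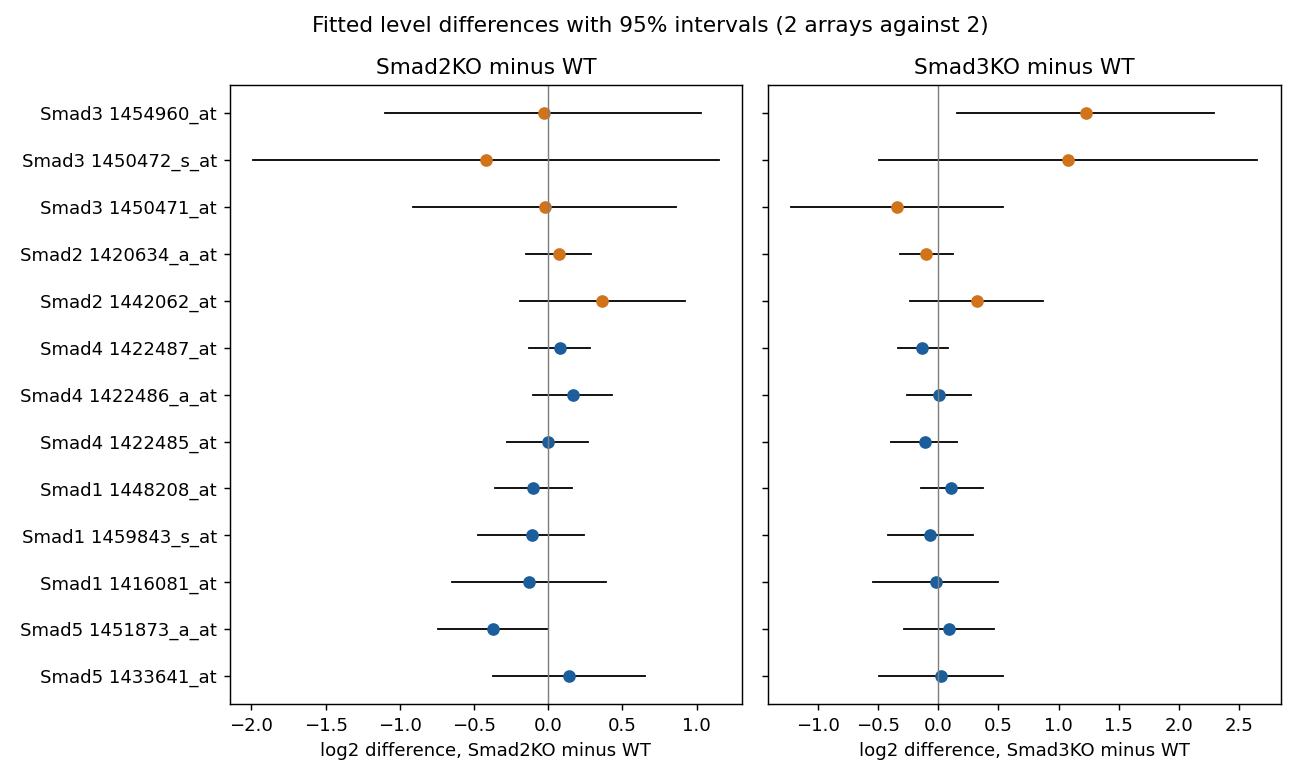
Fitted log2 difference of each Smad probe set between knockout and WT cells, with treatment as a block, 2 arrays against 2; points are estimates and bars 95% intervals. Smad3 intervals are the widest, and 1454960_at in Smad3KO cells (1.23, interval 0.16 to 2.29) is the point farthest from 0 in either panel.

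Smad4, the common partner, had the 1 of 13 tested Smad probe sets that passed the test of the TGF-b response. Of all tested probe sets 9.42% passed, so 1 of 13 is no excess. The probe set 1422486_a_at read 909 with and 661 without TGF-b in Smad2KO cells and 733 with and 654 without in Smad3KO cells. It read 269 with and 369.6 without TGF-b in Smad2KO_Smad3het cells, and 836 with and 569 without in WT cells. It was higher with TGF-b in Smad2KO (1.38-fold), Smad3KO (1.12-fold) and WT cells (1.47-fold), and lower in Smad2KO_Smad3het cells (0.727-fold). The mean over the first 3 was 0.39 on the log2 scale, or 1.31-fold (SE 0.0982, 95% interval 0.18 to 0.61, limma adjusted p = 0.0297). Its Smad3KO response minus the mean of the others was -0.34 (95% interval -0.74 to 0.05). The call was lost in 7 of 12 alternative settings, and over all 12 the value ranged from 0.18 to 0.51 and the limma adjusted p from 0.00278 to 0.699. It was lost without the WT pair (0.31, adjusted p = 0.157) and without the Smad2KO pair (0.36, adjusted p = 0.214). With all 8 arrays the mean was 0.18 (SE 0.183, limma adjusted p = 0.646).

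The other Smad4 probe sets did not share that response. The probe set 1422487_at read 1433 with and 1404 without TGF-b in Smad2KO cells, 1296 with and 1174 without in Smad3KO cells, and 1372 with and 1319 without in WT cells. Its mean response was 0.08 (95% interval -0.09 to 0.24, limma adjusted p = 0.574). The probe set 1422485_at read 509 with and 459 without TGF-b in Smad2KO cells, 426 with and 468 without in Smad3KO cells, and 464.5 with and 503 without in WT cells, with a mean of -0.03 (95% interval -0.26 to 0.19, limma adjusted p = 0.87). The 3 probe sets of Smad4 thus gave different readings of the same cultures, and the sources used here do not say which transcript forms each meets. Across genotypes, Smad4 in Smad2KO minus WT was 0.08, 0.17 and 0 on 1422487_at, 1422486_a_at and 1422485_at, and in Smad3KO minus WT -0.13, 0.01 and -0.11, none past the test in limma.

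Over all tested members on the 6 arrays, the TGF-b response was higher at 1 of 13 Smad probe sets and lower at 0, where 9.42% of all 20149 tested probe sets were called (5.93% higher and 3.49% lower). The unadjusted p was below 0.05 at 3 of 13, against 24.3% of all. With all 8 arrays 0 of 14 passed, where 0.0763% of all did, and 1 of 14 had an unadjusted p below 0.05, against 11.9% of all. The genotype differences gave 0 of 13 calls in Smad2KO minus WT, where 0.958% of all probe sets were called, and 0 of 13 in Smad3KO minus WT, where 0.372% were. At an unadjusted p below 0.05 these counts were 0, against 9.8% of all, and 1, against 10.3% of all. In both comparisons the WT arrays are the same, so the differences are not independent.

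Smad1, a transducer of the BMP arm, differed little over the 6 arrays on 1448208_at. That probe set read 455 with and 440.5 without TGF-b in Smad2KO cells, 545 with and 495 without in Smad3KO cells, and 478 with and 482 without in WT cells, with a mean response of 0.06 (95% interval -0.15 to 0.27). The probe set 1459843_s_at read 362 with and 241 without TGF-b in Smad2KO cells, 314 with and 295 without in Smad3KO cells, and 323 with and 315 without in WT cells. Its mean response was 0.24 (SE 0.131, limma adjusted p = 0.294), set mostly by the 1.51-fold ratio of the Smad2KO pair. The probe set 1416081_at ran the other way in that pair, at 87.3 with and 135 without TGF-b in Smad2KO cells, beside 127 with and 108 without in Smad3KO cells and 115 with and 123 without in WT cells. Its mean response was -0.16 (limma adjusted p = 0.658), and its r with 1459843_s_at over the 6 arrays was -0.738. Smad1 in Smad2KO minus WT was -0.10 to -0.13 over its 3 probe sets, with intervals that reached at most 1.31-fold higher. In Smad3KO minus WT it was -0.07 to 0.11, reaching at most 1.41-fold higher.

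Smad5, the other BMP-arm member here, was read on 3 probe sets that gave different readings. The probe set 1451873_a_at read 138 with and 170.5 without TGF-b in Smad2KO cells, 208 with and 214.5 without in Smad3KO cells, and 173 with and 227 without in WT cells. Its mean response was -0.25 (95% interval -0.55 to 0.05, limma adjusted p = 0.296). The probe set 1433641_at read 103 with and 101 without TGF-b in Smad2KO cells, 105 with and 84.0 without in Smad3KO cells, and 117 with and 73.0 without in WT cells, with a mean of 0.34 (95% interval -0.07 to 0.76, limma adjusted p = 0.296). The point estimates thus had opposite signs, and neither passed. In Smad2KO cells 1451873_a_at had the smallest p of the 13 members in Smad2KO minus WT, at -0.37 (SE 0.168, limma adjusted p = 0.515), and 1433641_at gave 0.14. The third, 1421047_at, did not reach 55.4 on any of the 6 arrays, where it read 33.4 to 50.2. Outside Smad3, the members' Smad2KO minus WT values without Smad2 itself lay between -0.37 and 0.17, and their Smad3KO minus WT values between -0.13 and 0.32.

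In Smad2KO_Smad3het cells several Smads read lower than in WT, on arrays whose whole signal distribution differed. On the 8-array fit, 6 of 14 Smad probe sets were lower than in WT and 0 higher, where 62% of all 28827 tested probe sets were called, 26.3% lower and 35.7% higher. The median difference of all probe sets was 0.46, and that of the members was -0.34. These were all 3 probe sets of Smad1, 2 of Smad4 and 1 of Smad2.

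Smad4 on 1422487_at read 434 with and 489 without TGF-b in Smad2KO_Smad3het cells, against 1372 with and 1319 without in WT cells, a difference of -1.55 (SE 0.0996, limma adjusted p = 0.00028). On 1422486_a_at the difference was -1.13 (adjusted p = 0.0137), while 1422485_at read 431 with and 649 without TGF-b, against 464.5 and 503 in WT cells, a difference of 0.13 (95% interval -0.34 to 0.6). Smad1 on 1448208_at read 212 with and 194 without TGF-b in Smad2KO_Smad3het cells, against 478 and 482 in WT cells, a difference of -1.24 (SE 0.105, limma adjusted p = 0.00049). The other Smad1 probe sets differed by -1.35 (1459843_s_at, 105.5 with and 148 without TGF-b) and -1.29 (1416081_at, 33.8 with and 56.7 without). Smad2 on 1420634_a_at differed by -0.52 (SE 0.0794, limma adjusted p = 0.00309), and Smad3 by -0.08 on 1454960_at, -0.16 on 1450472_s_at and 0.48 on 1450471_at, none past the test. Smad5 gave -1.07 on 1451873_a_at, 0.43 on 1433641_at and 0.78 on 1421047_at, none past the test.

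These 6 differences kept their sign and passed in all 8 alternative settings, but their sizes moved with the scaling. They ranged from -2.11 to -0.31 for Smad2 1420634_a_at, from -3.13 to -1.42 for Smad4 1422487_at and from -2.72 to -1.09 for Smad4 1422486_a_at. For Smad1 they ranged from -2.83 to -1.18 on 1448208_at, from -2.94 to -1.25 on 1459843_s_at and from -2 to -1.17 on 1416081_at. The number of lower Smad probe sets was 8 of 13 with quantile normalization and 12 of 13 with centred or unscaled arrays. Over all probe sets, 9665 of 24377, 16186 of 23767 and 14424 of 24499 were lower in these 3 settings. The median of all probe sets moved to -0.25, -1.43 and -1.06. The markers of myeloid, B, NK and CD8 T cells were brighter on these arrays, and their part in the lower Smad signals was not tested. Genotype and the distribution of these arrays cannot be told apart. Within this pair, 1 of 8 Smad probe sets at 83.7 or more on both arrays read higher with TGF-b by 2-fold or more, Smad3 1454960_at (352 with, 151 without), where 4.5% of all such probe sets did. None of the 8 read lower by as much, where 3.83% of all did. Smad5 1451873_a_at (171 with, 52.1 without), Smad5 1421047_at (49.4 with, 139 without) and Smad2 1442062_at (38.2 with, 86.7 without) had 1 array under 83.7, so they were not counted. With over without TGF-b they gave 3.28-fold, 0.355 and at most 0.483, the last with 1 array under the floor of 41.8. The 3.28-fold of Smad5 was above the 2.33-fold of Smad3 1454960_at in this pair. The robust SD of the log2 ratio was 0.436 in this pair, the widest of the 4.

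The genes that act on Smads or beside them were read from 8 lists of 56 genes, of which 46 passed the brightness filter. With TGF-b 16 were higher and 2 lower in limma on the 6 arrays, against 5.93% and 3.49% of all tested probe sets. The lists were chosen with earlier results of these data known, so an excess over these shares is no independent support. The counts rest on few arrays: they were 11 and 1 without the WT pair, 11 of 44 and 0 without the Smad2KO pair, and 1 of 50 (Skil) and 0 with all 8 arrays. The inhibitory Smad7, which blocks receptor access, was the 1 tested of the 3 remaining Smads. It read 372 with and 130 without TGF-b in Smad2KO cells, 263 with and 154 without in Smad3KO cells, and 336 with and 153 without in WT cells, a mean of 1.14 (SE 0.153, limma adjusted p = 0.000936). The 3 cultures with TGF-b all lay above the 3 without. Smad6 and Smad9 stayed under the filter.

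Of 6 tested corepressors 2 rose and 1 fell. Skil, which holds Smad complexes inactive, read 1636 with and 382 without TGF-b in Smad2KO cells, 1566 with and 563 without in Smad3KO cells, and 1840 with and 478 without in WT cells, a mean of 1.84 (SE 0.116, limma adjusted p = 1.26e-05). Its relative Ski rose by 1.28 and the homeodomain protein Tgif2 fell by 0.36. Of 9 ubiquitin ligases and deubiquitinases 1 rose, Smurf2, a ligase that targets receptors and Smads, by 0.52 (adjusted p = 0.0286). Of 4 tested adaptors 2 rose, both membrane proteins that sequester receptor Smads. These were Pmepa1, by 2.84 (SE 0.136), and Ldlrad4. Ldlrad4 read 110 with and 1.25 without TGF-b in Smad2KO cells, 37 with and 1.25 without in Smad3KO cells, and 177 with and 22.6 without in WT cells. All 3 untreated readings lay under the floor, so the size of its response is set by that floor, and it ranged from 1.26 to 3.25 over the alternatives. Of 7 Smad phosphatases and transport factors none passed. The calls of Tgif2, Smurf2 and Ldlrad4 were lost without the WT pair (adjusted p 0.151, 0.143 and 0.151) and without the Smad2KO pair (0.258, 0.246 and 0.19).

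Of 7 tested nuclear partners, Runx1 rose by 1.21 and Jun by 0.66, and the coactivator Ep300 fell by 0.45. Without the WT pair the calls of Jun (0.52, adjusted p = 0.157) and Ep300 (-0.37, adjusted p = 0.156) were lost, and without the Smad2KO pair that of Ep300 (-0.41, adjusted p = 0.212), all in limma. Of 9 tested receptors 6 rose, among them Acvr2a by 1.56, Tgfbr3 by 0.53, Tgfbr2 by 0.68 and Tgfbr1 by 2.79. The count was 4 of 9 without the WT pair, 3 of 8 without the Smad2KO pair and 0 of 9 with all 8 arrays. The calls of Tgfbr1 (2.67, limma adjusted p = 0.142) and Acvr1b (0.79, limma adjusted p = 0.112) were lost without the WT pair. Those of Tgfbr2 (0.68, limma adjusted p = 0.063), Acvr1b (0.74, limma adjusted p = 0.0874) and Bmpr2 (1.68, limma adjusted p = 0.187) were lost without the Smad2KO pair. Tgfbr1, the type I receptor that phosphorylates Smad2 and Smad3, read 3531 with and 365 without TGF-b in Smad2KO cells, 1638 with and 389.5 without in Smad3KO cells, and 3334 with and 413 without in WT cells. The 3 cultures without TGF-b lay within 365 to 413, and the treated Smad3KO culture was the lowest of the treated ones. Its Smad3KO response minus the mean of the others was -1.07 (SE 0.182, limma adjusted p = 0.0219), the 1 call among these genes in that test, where 0.134% of all probe sets were called. The call was lost in 5 of 8 alternative settings, with values from -1.13 to -0.57 and adjusted p up to 1 over the 8, and its Smad3KO side is 1 pair of arrays with no replicate.

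Of 3 tested targets known for the BMP arm, Id1, an inhibitor of DNA binding, read 226 with and 56.6 without TGF-b in Smad2KO cells, 105.5 with and 49.5 without in Smad3KO cells, and 200.4 with and 44.1 without in WT cells, a mean of 1.76 (SE 0.228, limma adjusted p = 0.000821). Id2 rose by 0.89 and Id3 gave -0.81, not past the test (adjusted p = 0.134). Id2 was also the 1 of the 46 genes called between Smad2KO and WT, higher by 0.68 (SE 0.126, limma adjusted p = 0.0338), at 1693 with and 750.2 without TGF-b in Smad2KO cells against 888.5 and 559 in WT cells. It passed in 4 of 9 alternative settings. Of all tested probe sets 0.958% were called between Smad2KO and WT. Between Smad3KO and WT 0 of the 46 genes passed, where 0.372% of all probe sets did. Counts of 1 and 0 among 46 genes are near these shares and are not read further.

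**Figure D4:**
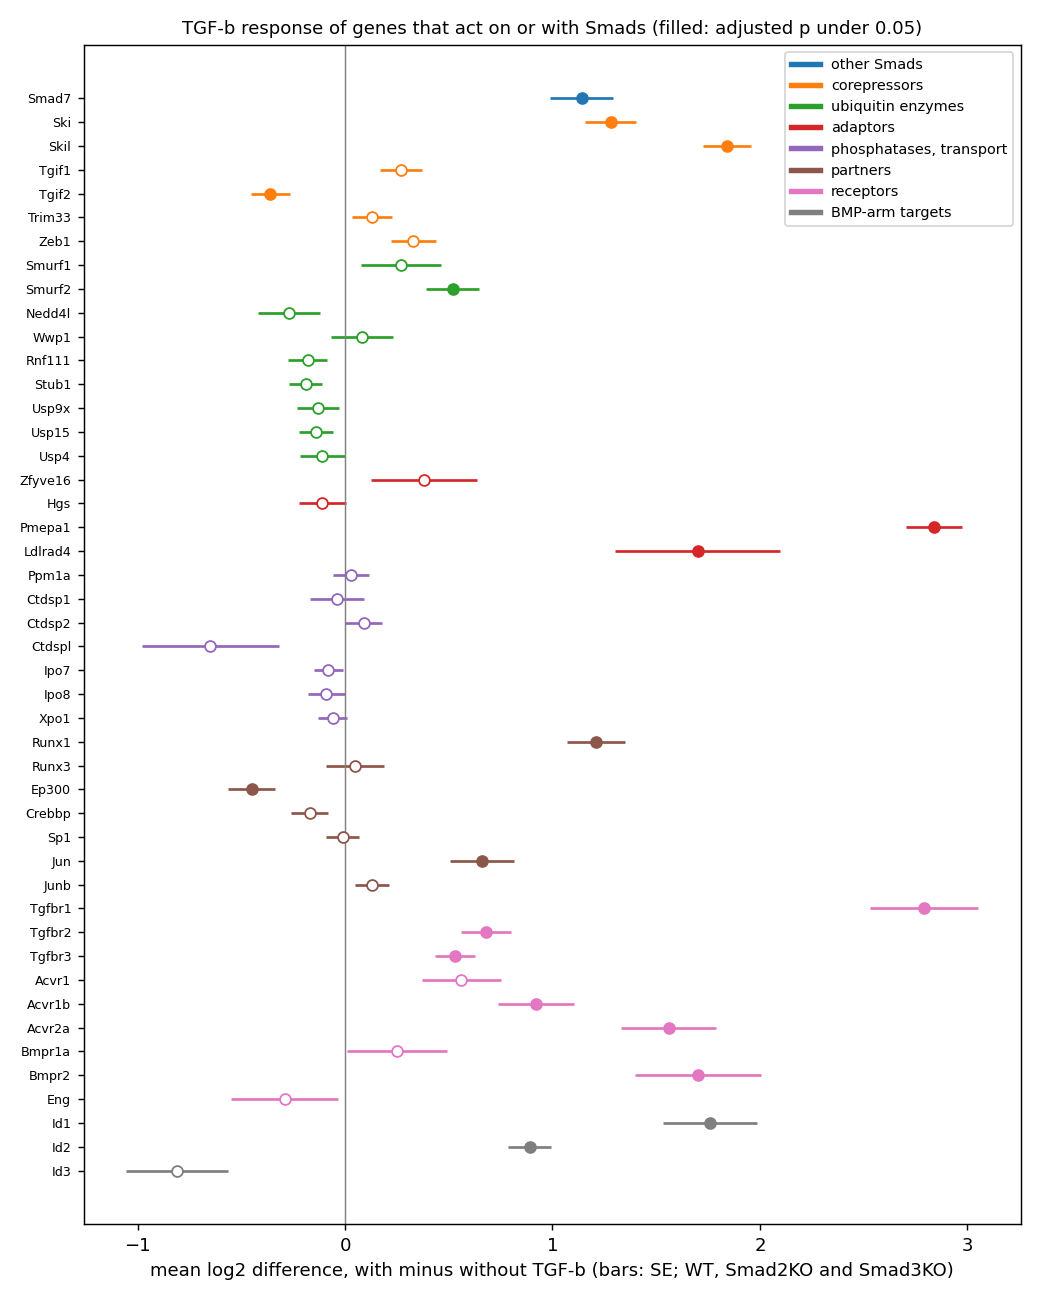
Mean TGF-b response (log2, with minus without) of the 46 tested genes that act on or with Smads, over Smad2KO, Smad3KO and WT cells; bars are standard errors, colours the lists and filled points an adjusted p under 0.05. Pmepa1 and Tgfbr1 lie farthest to the right, at 2.84 and 2.79, and all tested phosphatases and transport factors are open points.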

How the data were processed

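The authors deposited 1 linear intensity for each probe set and culture, and the submitters' processing notes name GCOS 1.4. No algorithm or scaling setting is given in the sources used. The platform annotation paired 34945 of the 45101 probe sets with 1 gene symbol, 64 were controls, 932 had several (0 with a member) and 9160 were unnamed. Each array was scaled to a 2% trimmed mean of 216, floored at the median (27.7 on 6 arrays, 41.8 on 8), filtered at 2 times the floor (55.4 and 83.7) and put on log2. The main model was limma 3.58.1 in R 4.3.3, genotype plus treatment with trend and robust settings, on 20149 probe sets (28827 on 8 arrays), with Benjamini-Hochberg adjustment over all of them at 0.05 and 2 residual degrees of freedom (3 on 8 arrays). Scripts were run on simulated data with known changes and independent noise on each array. The outcome is not given here, so it is no support for the calls. The number of arrays limits the precision, and a p-value here reflects the spread between cultures, which includes real differences between genotypes. Where 1 array of a pair had a signal under the floor, the fold understates the size of the difference.

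The alternatives were quantile normalization, centring on the median, no scaling, another floor (25th percentile), an offset of 16, no filter, limma without trend and robust settings, 8 arrays, no block, and each genotype pair left out. Named genes were every Smad1 to Smad5 probe set, at most 4 genes per list with the smallest p, each read from its probe set of highest mean, and the 5 genes most correlated with Smad3 1454960_at. The receptors Acvr1b and Bmpr2 were named beyond that rule, for calls lost when a pair was left out. Members, lists and tests were chosen with earlier results of these data known. Promoters came from RefSeq (GRCm38.p6). Figures were drawn with matplotlib 3.10.9.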

Additional observations from a re-analysis of the deposited data

Results flagged for a closer look

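The TGF-b response of Tgfbr1 (probe set 1420895_at), the type I TGF-b receptor, passed a test of the difference between genotypes on 3 single pairs of arrays. The Smad3KO response minus the mean of the Smad2KO and WT responses was -1.07 in log2 units (SE 0.182, limma adjusted p = 0.0219). The Smad3KO side is 1 pair of arrays with no replicate. The spread, with 1 residual degree of freedom, comes from the Smad2KO and WT responses, moderated by limma towards that of probe sets of like signal. The call was lost in 5 of 8 alternative settings, with adjusted p from 3.21e-05 to 1. The signal was higher with TGF-b in all 3 genotypes. The cause was not tested.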

How the results depend on the processing

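For 41 values of named probe sets, 424 alternatives were computed. Of these, 323 kept direction and side of the threshold, 86 lost the call, 12 gained one and 3 changed sign. For 12 counts of Smad probe sets, 108 alternatives were computed, of which 94 stayed within 1.5 times the count and 14 did not. Most of the 12 counts were 0, and 0 against 0 was taken as unchanged, also in settings that called few probe sets at all. The tally therefore says little about stability. The number of Smad probe sets higher with TGF-b, 1 on the 6 arrays, was 2 with the floor at the 25th percentile, 4 without the Smad3KO pair, and 0 without the filter, without trend and robust settings, with 8 arrays, without the genotype block, or without the WT or the Smad2KO pair (3, 3, 1, 2, 2 and 1 at an unadjusted p below 0.05), so leaving out a pair gave 0 to 4. In Smad3KO minus WT the count higher was 1 instead of 0 without scaling. In the Smad3KO response difference the count lower was 2 instead of 0 with quantile normalization, centring or the 25th percentile floor, where the limma adjusted p was 0.028, 0.00177 and 0.000331 for Smad3 1454960_at and 0.0142, 0.00117 and 0.000462 for 1450472_s_at. In Smad2KO_Smad3het minus WT the count lower was 12 of 13 instead of 6 of 14 with centring or no scaling. There 16186 of 23767 and 14424 of 24499 of all probe sets were lower. The sign changed for Smad3 1454960_at in Smad2KO minus WT (0.12 centred and 0.17 unscaled, against -0.03) and for Smad2 1420634_a_at in Smad3KO minus WT (0.07 centred, against -0.10). Centring moved the median of all probe sets by 0.15 in Smad2KO minus WT and 0.18 in Smad3KO minus WT. Leaving out scaling moved it to 0.2 in Smad2KO minus WT, -0.2 in the TGF-b response and 0.49 in the Smad3KO response difference. For the rest, the cause was not tested. Over all probe sets, TGF-b calls numbered 1898, against 768 without scaling, 515 without the filter, 400 without trend and robust settings, 22 with 8 arrays, 2144 with the 25th percentile floor, 2749 without the Smad3KO pair, 1001 without the WT pair, 798 without the Smad2KO pair and 914 without the genotype block. Calls in Smad2KO minus WT numbered 193, against 471 centred, 98 unscaled, 340 with the 25th percentile floor, 18 without the filter, 6 without trend and robust settings, 6 with 8 arrays and 19 without the treatment block. Calls in Smad3KO minus WT numbered 75, against 442, 41, 245, 3, 2, 2 and 3 under the same settings. Calls in the Smad3KO response difference numbered 27, against 57 with quantile normalization, 88 centred, 387 unscaled, 153 with the 25th percentile floor, 17 with the offset, and 0 without the filter, without trend and robust settings or with 8 arrays. Calls in the Smad2KO response difference numbered 1, against 6 centred, 43 with the 25th percentile floor, and 0 unscaled, with the offset, without the filter, without trend and robust settings or with 8 arrays. The labels give no replicate numbers, so the pairing in these models is by genotype or treatment. Among the 46 genes that act on or with Smads, 16 higher and 2 lower with TGF-b became 10 and 1 without scaling, 8 and 0 without the filter, 6 and 0 without trend and robust settings, and 12 and 0 without the genotype block. Signals near the floor, as for Smad3 1450471_at and Smad5 1421047_at, limit what these arrays can show.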
